A study of Mus musculus with 12 samples.

Results

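The genes described here are 34 interferon-stimulated genes, among 23102 genes measured in mouse oral tumours that carried RAS with or without a human papillomavirus (HPV) transgene. They were named as a set (the IFIT, MX and OAS families, ISG15 and its ubiquitin and ADP-ribose partners, interferon transcription factors, other antiviral effectors, and chemokines and guanylate-binding proteins), and all 34 were measured, on 2 to 20 probesets each and 326 in total. Tumours the labels call KHR (RAS and iHPV, with HPV E6 named on a further label, n = 6) were set against those called KR (RAS, n = 6). All 12 tumours came from C57BL/6 × FVB F1 mice given tamoxifen by intraperitoneal injection, and total RNA of each was read on 1 Affymetrix Mouse Gene ST 2.0 array at the level of exons. The promoters that drive the transgenes, the cells in which tamoxifen acts, the age and sex of the animals, and any other allele that both groups carry were not given in the sources used here. The labels do not tie each tumour to an animal of its own, and the p-values therefore speak for the spread among these 12 arrays, part of which may be technical.

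Type I interferons bind a receptor on nearly every nucleated cell and activate a transcription factor built with STAT2 and IRF9, which binds DNA elements called ISREs and turns on genes that block viruses at many steps. Interferon-gamma, made by T and NK cells, acts mainly through STAT dimers at elements called GAS, and Cxcl9, Cxcl10, Irf1 and Gbp2 are among the genes it induces most. In human cells the E6 protein of high-risk HPV is known to bind interferon regulatory factors and to dampen this response, and HPV-infected keratinocytes often express interferon-stimulated genes at a low level. These points are background and were not tested here.

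The interferon elements can be read in the promoters of the genes themselves. RefSeq promoter windows (assembly GRCm38.p6, 250 bases before the annotated start) matched 26 of the 34 genes. Both strands were searched for GAAA, any 2 bases and GAAA again, the core letters of an ISRE, and for TTCNNNGAA, the core letters of a GAS element, which reads the same on both strands. The ISRE letters stood in 12 of 26 genes, where 3.46% of all 27025 genes with a window held them. The GAS letters stood in 4 of 26 genes, against 8.13% of all genes. In Bst2 a GAS match overlapped an ISRE match, and such a match is a description of the letters, not a site in use. The windows below show the forms these promoters took. They are written 5′ to 3′ on the strand of the gene in lower case, with the matched letters in capitals.

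The window of Isg15 (chr4:156200819-156201068, minus strand), the ubiquitin-like modifier, held 3 overlapping ISRE matches between 78 and 57 bases before the start. Ifit1 (chr19:34640639-34640888, plus strand), whose protein binds foreign RNA, had 2 separate ISRE matches on the opposite strand. Gbp2 (chr3:142620413-142620662, plus strand) and Cxcl10 (chr5:92348890-92349139, minus strand), both interferon-gamma-led, had 1 ISRE match each. Irf1 (chr11:53769764-53770013, plus strand), a regulator induced by interferon-gamma, had 1 GAS match at 90 to 82 bases before the start, in the first of its windows. Oasl2 (chr5:114896684-114896933, plus strand), an OAS-like gene that was higher in KHR tumours, had neither kind of match in this window.

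Isg15: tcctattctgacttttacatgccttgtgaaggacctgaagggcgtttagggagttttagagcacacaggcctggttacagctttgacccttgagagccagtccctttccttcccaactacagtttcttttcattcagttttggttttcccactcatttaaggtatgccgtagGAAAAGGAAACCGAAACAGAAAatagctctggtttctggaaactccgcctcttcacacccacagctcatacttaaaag
Ifit1: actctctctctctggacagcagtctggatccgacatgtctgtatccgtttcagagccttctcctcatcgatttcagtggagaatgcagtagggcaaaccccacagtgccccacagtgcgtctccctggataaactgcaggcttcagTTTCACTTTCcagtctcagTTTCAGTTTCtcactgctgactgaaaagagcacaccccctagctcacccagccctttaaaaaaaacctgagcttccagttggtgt
Gbp2: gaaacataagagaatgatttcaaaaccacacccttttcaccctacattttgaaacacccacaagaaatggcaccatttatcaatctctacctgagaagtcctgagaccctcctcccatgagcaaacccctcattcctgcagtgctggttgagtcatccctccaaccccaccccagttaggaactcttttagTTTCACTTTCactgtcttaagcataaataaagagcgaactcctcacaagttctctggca
Cxcl10: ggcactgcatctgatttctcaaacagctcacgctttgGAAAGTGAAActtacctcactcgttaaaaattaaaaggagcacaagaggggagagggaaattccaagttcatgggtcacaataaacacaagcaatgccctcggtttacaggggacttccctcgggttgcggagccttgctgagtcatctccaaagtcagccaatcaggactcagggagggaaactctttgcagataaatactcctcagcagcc
Irf1: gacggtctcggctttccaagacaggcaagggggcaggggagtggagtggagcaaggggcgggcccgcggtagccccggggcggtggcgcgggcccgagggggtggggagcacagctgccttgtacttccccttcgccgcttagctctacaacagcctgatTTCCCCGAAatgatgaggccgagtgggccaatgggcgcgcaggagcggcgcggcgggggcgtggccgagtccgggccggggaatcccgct
Oasl2: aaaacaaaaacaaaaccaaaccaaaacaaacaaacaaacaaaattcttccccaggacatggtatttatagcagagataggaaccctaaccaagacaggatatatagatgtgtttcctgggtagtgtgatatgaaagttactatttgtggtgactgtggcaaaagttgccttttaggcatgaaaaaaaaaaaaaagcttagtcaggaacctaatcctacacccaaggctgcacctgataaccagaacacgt

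Most of the 34 genes were slightly higher in the tumours with the HPV transgene, and 3 passed the test: Dtx3l, Ifi27 and Oasl2, with folds of 1.49 to 1.93. A gene's value was the median log2 intensity of its probesets, and a change is the mean of KHR arrays minus the mean of KR arrays. Tests were limma's moderated test with Benjamini-Hochberg adjustment over all 23102 genes at a threshold of 0.05, by which 3.74% of all genes changed (2.71% higher and 1.03% lower). Of the 34 genes, 3 were higher (8.82%) and 0 were lower. At an unadjusted p under 0.05, 13 of 34 were higher and 0 lower, where 9.64% of all genes were higher and 15.9% passed in either direction. The change was above 0 in 29 of 34 genes, against 51.0% of all genes, and its median was 0.32 against 0.00 over all genes. The 34 genes were chosen with earlier results of these data known, so their counts were not tested as a set.

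**Figure D1:**
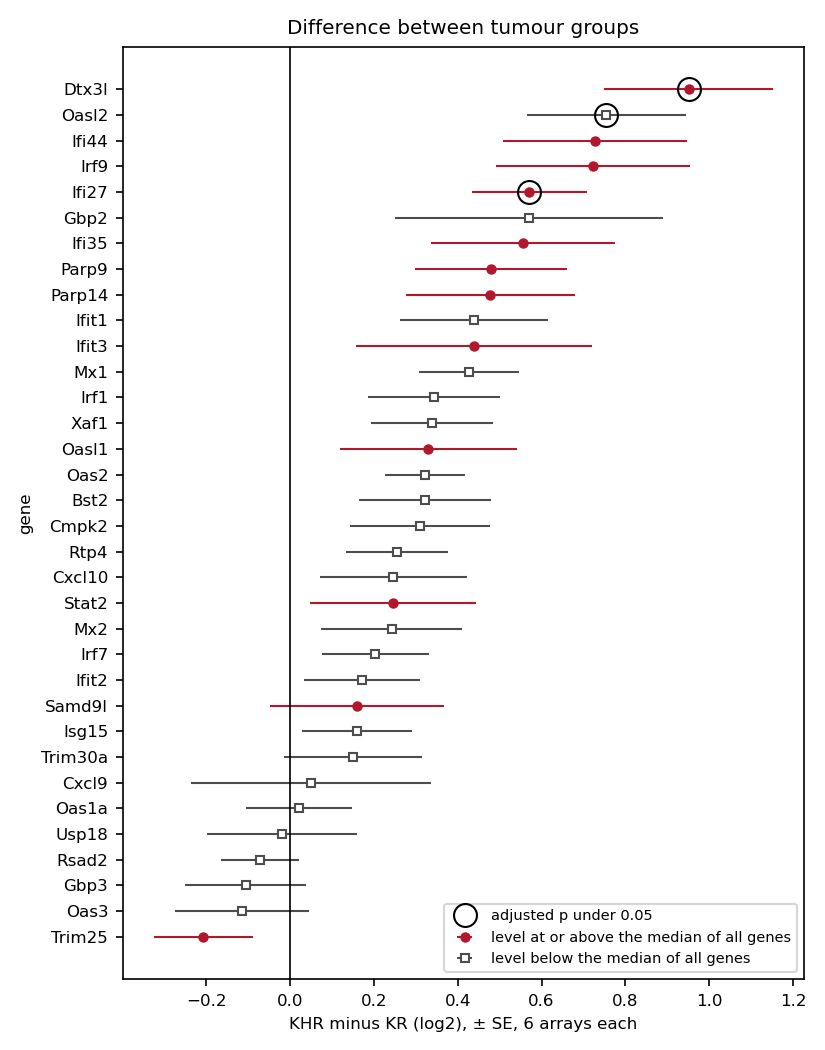
Change of each of the 34 genes (KHR minus KR, log2, horizontal axis) with its SE, 6 arrays per group, ordered by size. Filled red circles are genes at or above the median level of all genes, open squares genes below it, and black rings mark Dtx3l, Ifi27 and Oasl2, which passed the threshold. The changes run from −0.21 for Trim25 to 0.95 for Dtx3l, and 29 of 34 lie right of 0.

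The genes of ISG15, ubiquitin and ADP-ribose modification held the gene with the smallest p of the set. Dtx3l encodes an E3 ubiquitin ligase that works in a complex with PARP9 and helps to amplify interferon signalling. Its lowest, median and highest log2 values were 6.88, 6.98 and 7.42 in KHR tumours, against 5.24, 6.25 and 6.66 in KR tumours. Every KHR tumour lay above every KR tumour, which was so for 1 of the 34 genes and for 1.83% of all genes (2.67% counting either direction). The change was 0.95 ± 0.20 (SE), a fold of 1.93, with limma adjusted p = 0.0181. Leaving out any one of the 12 arrays kept the adjusted p between 0.0108 and 0.0483. The size of the change depended on how probesets were summarised. Their mean gave 0.50 ± 0.10 (limma adjusted p = 0.00645) and median polish gave 0.35 ± 0.09 (0.0382).

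Parp9, the ADP-ribosylating partner of Dtx3l, read 5.59, 6.02 and 6.36 in KHR tumours, against 5.18, 5.34 and 6.17 in KR tumours. The groups overlapped, with 2 KHR tumours above the highest KR tumour, and the change of 0.48 ± 0.18 did not pass (limma adjusted p = 0.189). Without KR 4 it did (0.0472). That was 1 of 12 fits that left out 1 array, and the adjusted p of Parp9 reached 0.328 in the others. Trim25, an E3 ligase that activates the RNA sensor RIG-I, read 7.77, 7.93 and 8.18 in KHR tumours, against 7.89, 8.17 and 8.62 in KR tumours. No KHR tumour exceeded the highest KR tumour, and the change of −0.21 ± 0.12, the lowest of the 34, did not pass (limma adjusted p = 0.439). The other members of this group were Parp14, a macrodomain ADP-ribosyltransferase, at 0.48 ± 0.20, and Usp18, the protease that removes ISG15, at −0.02 ± 0.18, with Trim30a at 0.15 ± 0.16. Isg15 itself read 3.94, 4.11 and 4.58 in KHR tumours, against 3.73, 3.94 and 4.37 in KR tumours. The groups overlapped over most of their range, and the change was 0.16 ± 0.13 (limma adjusted p = 0.633). Of the 7 genes, 1 passed and 5 had a change above 0.

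By the median over probesets, Ifi27 and Ifi44 had the largest changes among the other effectors. Ifi27, a small membrane protein of mitochondria and the nuclear envelope, read 8.20, 8.53 and 8.84 in KHR tumours, against 7.67, 7.90 and 8.27 in KR tumours. The groups touched at their ends, with 4 KHR tumours above the highest KR tumour and all 6 above the KR median. The change was 0.57 ± 0.14, a fold of 1.49, with limma adjusted p = 0.0349. This call held without KHR 1, KHR 2, KHR 5 or KR 3, and was lost without any of the other 8 arrays, with an adjusted p of up to 0.0837.

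Ifi44, a cytoplasmic protein that restrains viral and cell growth, read 4.52, 5.60 and 5.99 in KHR tumours, against 4.48, 4.73 and 4.95 in KR tumours. A single KHR tumour, KHR 3, lay among the KR tumours and the other 5 lay above them all. The change of 0.73 ± 0.22 did not pass (limma adjusted p = 0.0923), and without KHR 3 it did (0.0120). That was 1 of 12 fits that left out 1 array, and the adjusted p of Ifi44 reached 0.191 in the others. Of its 10 probesets, 7 had a change above 0. Their mean gave 0.29 ± 0.16 (limma adjusted p = 0.363) and median polish gave 0.20 ± 0.15 (0.534). Ifi35, which forms a complex with NMI, read 5.63, 6.11 and 6.32 in KHR tumours, against 4.80, 5.37 and 6.42 in KR tumours. The highest of all 12 values was a KR tumour, KR 1, although all 6 KHR tumours lay above the KR median. Its change was 0.56 ± 0.22 (limma adjusted p = 0.217), and the adjusted p was 0.0356 without KR 1. Ifi35 passed in that 1 of 12 fits only, with an adjusted p of up to 0.371 in the others.

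The remaining effectors showed small differences with overlapping groups. Bst2, the tether that holds budding virions on the cell, differed by 0.32 ± 0.16, and Xaf1, an antagonist of the apoptosis inhibitor XIAP, by 0.34 ± 0.15. Cmpk2, a mitochondrial nucleotide kinase, Rtp4, a receptor transporter, and Samd9l, an inhibitor of translation, differed by 0.31, 0.26 and 0.16. Rsad2, which makes a chain-terminating nucleotide that stops viral polymerases, differed by −0.07 ± 0.09 (limma adjusted p = 0.793). Of the 9 effectors, 1 passed and 8 had a change above 0.

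The IFIT, MX and OAS families, the best known antiviral genes, were near 0 to modestly higher, and 1 of 10 passed. Oasl2 belongs to the family of oligoadenylate synthases, which make the activator of RNase L on double-stranded RNA. It read 4.61, 5.29 and 5.90 in KHR tumours, against 4.12, 4.43 and 4.72 in KR tumours. All KHR tumours but 1, KHR 3, lay above the highest KR tumour. The change was 0.75 ± 0.19, a fold of 1.69, with limma adjusted p = 0.0431. It passed without KHR 2 or KHR 3 and was lost without any of the other 10 arrays, with an adjusted p of up to 0.0914.

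Mx1 encodes a dynamin-like GTPase that traps viral nucleocapsids and that carries an internal deletion in C57BL/6 mice. It read 4.03, 4.52 and 4.86 in KHR tumours, against 3.96, 4.04 and 4.27 in KR tumours, and 5 KHR tumours lay above the highest KR tumour. Its change was 0.43 ± 0.12 (limma adjusted p = 0.0675), and without KHR 1 the adjusted p was 0.00805. That was the 1 of 12 fits leaving out 1 array in which Mx1 passed, and the adjusted p reached 0.139 in the others. The mean over probesets gave 0.24 ± 0.13 (limma adjusted p = 0.344) and median polish gave 0.10 ± 0.09 (0.647). Oas2 read 3.94, 4.22 and 4.41 in KHR tumours, against 3.80, 3.81 and 4.04 in KR tumours. It too had 5 KHR tumours above the highest KR tumour, with a change of 0.32 ± 0.09 (limma adjusted p = 0.0842, and 0.0453 without KHR 6). Oas2 passed in that 1 of 12 such fits, with an adjusted p of up to 0.160 in the others.

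Ifit1 read 4.26, 4.67 and 5.57 in KHR tumours, against 3.98, 4.34 and 4.51 in KR tumours. The highest value was KHR 5, 5 KHR tumours lay above the highest KR tumour, and the change of 0.44 ± 0.18 did not pass (limma adjusted p = 0.226). Ifit3, a partner of Ifit1, differed by 0.44 ± 0.28, Oasl1, known in mice as an inhibitor of Irf7 translation, by 0.33 ± 0.21, Mx2 by 0.24 ± 0.17 and Ifit2 by 0.17 ± 0.14. Oas1a differed by 0.02 ± 0.13 and Oas3 by −0.11 ± 0.16, and the sign of Oas1a turned to −0.01 when array medians were subtracted. Of the 10 genes, 9 had a change above 0. Oas1a, Ifit3, Gbp2, Gbp3 and Trim30a have near-identical copies in the mouse genome, and their probesets may read more than 1 gene.

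All 4 interferon transcription factors had a change above 0 and none passed. At an unadjusted p under 0.05, 2 of them, Irf9 and Irf1, were higher. Irf9, the DNA-binding subunit of the type I complex, read 6.29, 6.63 and 7.34 in KHR tumours, against 5.34, 5.95 and 6.56 in KR tumours. All 6 KHR tumours lay above the KR median and 3 above the highest KR tumour. The change was 0.72 ± 0.23, a fold of 1.65, with limma adjusted p = 0.116. Taking the mean of probesets in place of the median gave 0.48 ± 0.13, with limma adjusted p = 0.0424. Median polish gave 0.53 ± 0.15, which did not pass (limma adjusted p = 0.0563). Irf9 passed in 0 of the 12 fits that left out 1 array, with an adjusted p of 0.0703 to 0.230.

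Stat2, the partner of Irf9, read 5.73, 6.27 and 6.66 in KHR tumours, against 5.44, 5.90 and 6.57 in KR tumours, and the groups overlapped over most of their range. Its change was 0.24 ± 0.20 (limma adjusted p = 0.621). Irf1 read 4.82, 5.09 and 5.52 in KHR tumours, against 4.31, 4.81 and 5.24 in KR tumours. All 6 KHR tumours lay above the KR median but only 1 above the highest KR tumour, with a change of 0.34 ± 0.16 (limma adjusted p = 0.307). Irf7, the factor that amplifies interferon production, differed by 0.20 ± 0.13.

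**Figure D2:**
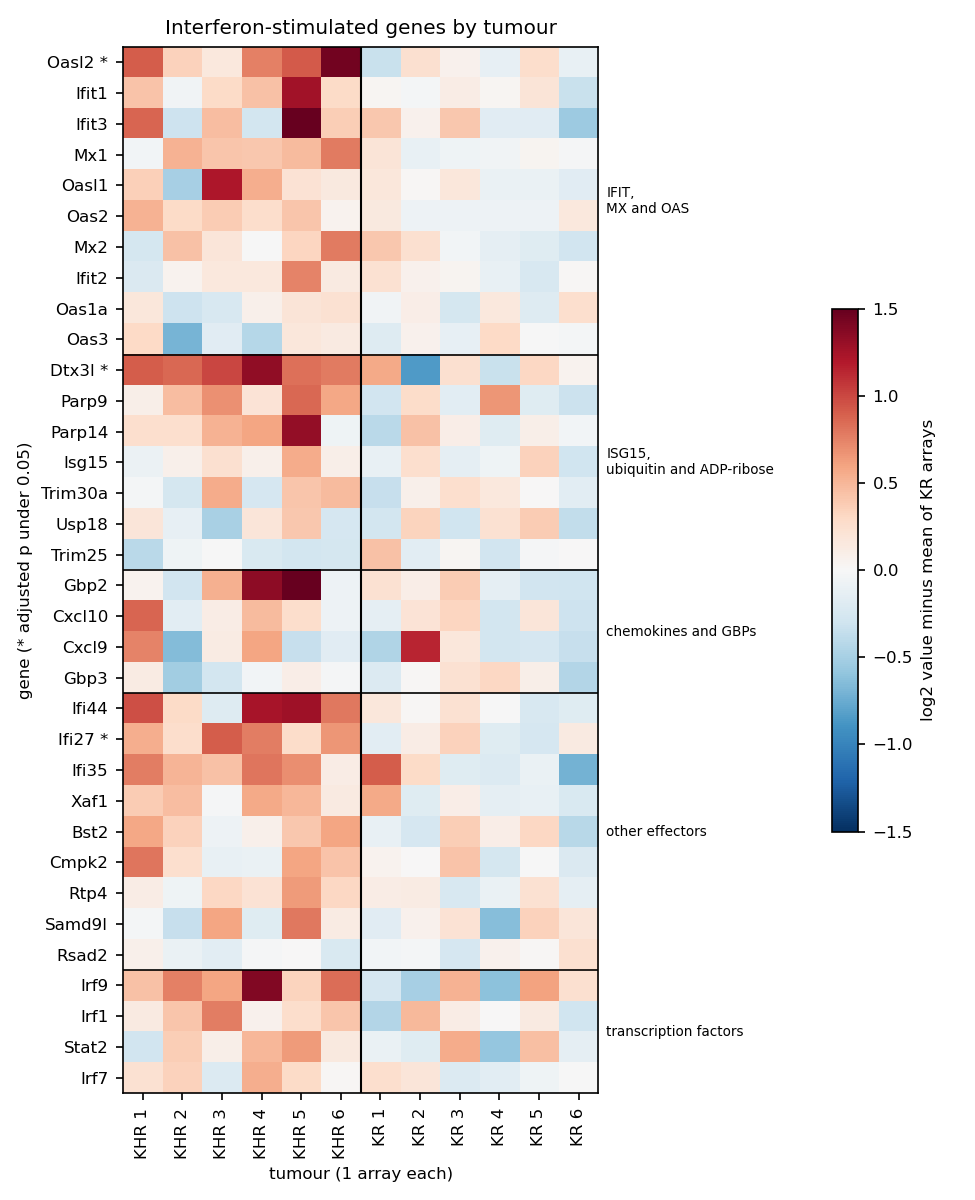
Values of the 34 genes (rows, grouped by role) in the 12 tumours (columns, KHR left of KR), coloured by log2 value minus the mean of the 6 KR arrays, from blue (lower) to red (higher). Stars mark Dtx3l, Ifi27 and Oasl2. The KHR 5 column holds the highest of the 12 values for 12 genes and the KR 6 column the lowest for 10 genes.

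Of the 4 chemokines and guanylate-binding proteins limma called 0, also at an unadjusted p under 0.05. Cxcl9, which draws T cells through the receptor CXCR3, read 3.85, 4.48 and 5.25 in KHR tumours, against 4.05, 4.25 and 5.64 in KR tumours. The highest value was a KR tumour and the lowest a KHR tumour, with a change of 0.05 ± 0.29 (limma adjusted p = 0.964) whose sign turned in 5 of the 12 fits that left out 1 array. Cxcl10, a ligand of the same receptor, read 3.76, 4.11 and 4.79 in KHR tumours, against 3.61, 3.94 and 4.25 in KR tumours. The groups overlapped, and the change was 0.25 ± 0.18 (limma adjusted p = 0.559).

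Gbp2, a GTPase that attacks the membranes of intracellular pathogens, read 4.11, 4.69 and 6.26 in KHR tumours, against 4.09, 4.38 and 4.77 in KR tumours. The KHR tumours spread over more than 2 log2 units and only 3 of them lay above the KR range. The change was 0.57 ± 0.32 (limma adjusted p = 0.428), and 0.31 ± 0.25 without KHR 5. Gbp3 differed by −0.11 ± 0.14.

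Taken as means over genes, the 4 interferon-gamma-led genes (Cxcl9, Cxcl10, Irf1 and Gbp2) and the other 30 differed between groups by amounts within 0.01 of each other, with unlike spread. The mean of the 30 was 5.17 ± 0.15 in KHR tumours and 4.86 ± 0.09 in KR tumours (SD, n = 6 each), a change of 0.31 ± 0.07 (SE). The lowest KHR tumour, at 4.98, lay above the highest KR tumour, at 4.94. The mean of the 4 was 4.70 ± 0.31 in KHR tumours and 4.39 ± 0.30 in KR tumours, a change of 0.30 ± 0.18 with overlapping groups. None of the 4 passed the test, and 3 of the other 30 did. A mean over 4 genes spreads more than one over 30, and a difference between the 2 sets was not tested.

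**Figure D3:**
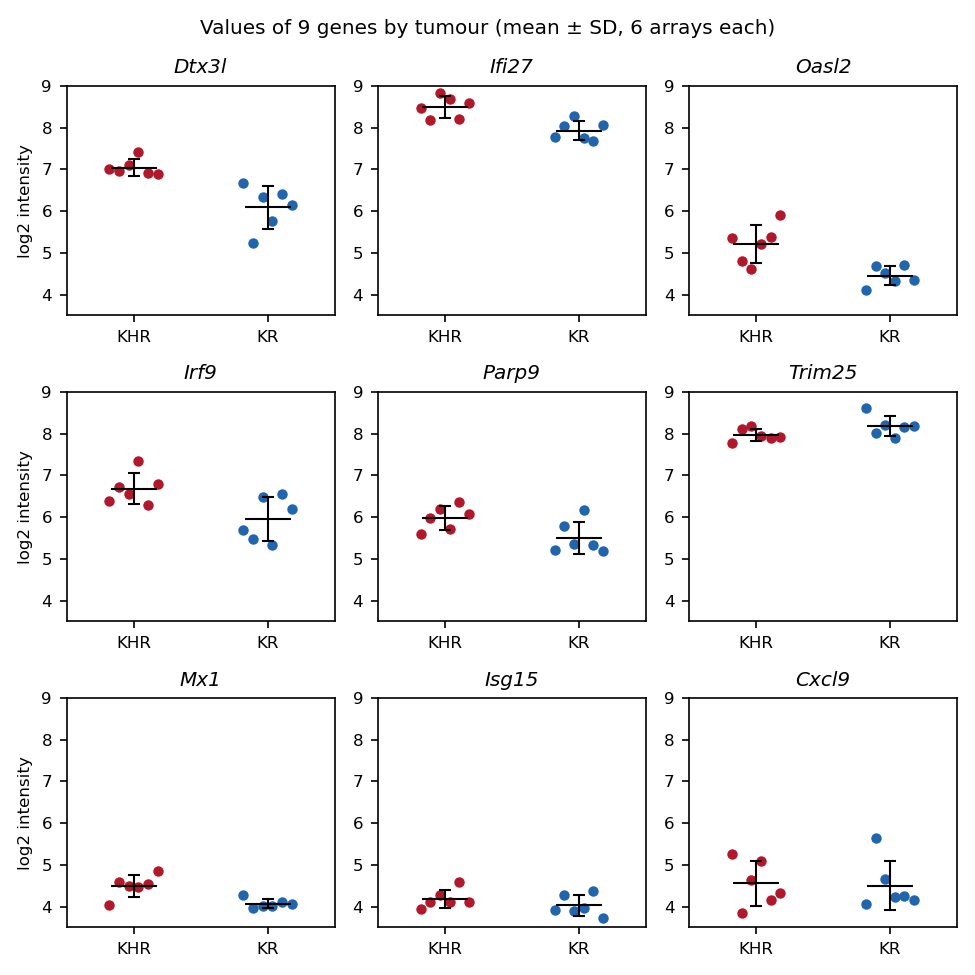
Log2 intensity of 9 genes in each tumour (points, KHR left and KR right, 6 arrays each) with the mean and SD. Dtx3l is the gene without overlap (lowest KHR 6.88, highest KR 6.66), Ifi27 and Oasl2 overlap at their edges, and Isg15, Trim25 and Cxcl9 overlap over most of their range.

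Many of the genes gave low signals. The median level of all genes over the 12 arrays was 4.98, and 22 of the 34 genes lay below it, among them Isg15, Ifit1, Mx1, Oas2, Irf7, Rsad2, Usp18 and Cxcl10. The files give no detection call, and a probeset's level depends on its sequence as well as on the RNA, so levels serve here only to part bright from dim genes and to choose and order genes for display. Among the 12 genes at or above the median level, 11 had a change above 0 (57.8% of all genes so bright did) and 2 passed, where 7.07% of such genes passed. Their median change was 0.48, against 0.05 over all such genes. Among the 22 dim genes, 18 had a change above 0 (44.2% of dim genes) and 1, Oasl2, passed, where 0.398% of dim genes passed. Their median change was 0.24, against −0.02 over all dim genes.

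Single probesets showed the same direction and, in some genes, larger changes. Of the 326 probesets, 228 had a change above 0, against 50.6% of all 269751 probesets. In Ifi27 all 8 probesets did, in Oasl2 12 of 13, in Irf9 12 of 13, in Parp9 12 of 14, in Dtx3l 7 of 8 and in Trim25 4 of 14. Tested one by one by limma with adjustment over all probesets, 6 of the 326 passed, where 0.883% of all probesets did. They lay in 6 genes, with 5 higher and 1 lower.

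The largest was 1 probeset of Oas1a. Its mean was 7.08 in KHR tumours and 5.21 in KR tumours, a change of 1.88 ± 0.30 (limma adjusted p = 0.0133), with the lowest KHR tumour at 6.59 and the highest KR tumour at 6.21. The other 4 Oas1a probesets changed by −0.06 to 0.33, and the gene's value, the median over probesets, changed by 0.02. The other higher probesets belonged to Oasl2 (1.57), Dtx3l (1.20), Parp9 (1.18) and Parp14 (1.08). The lower one belonged to Trim25, with a mean of 7.23 in KHR tumours and 7.92 in KR tumours, a change of −0.69 ± 0.14 (limma adjusted p = 0.0460). Which exons or transcripts these probesets read is not given in the files.

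The list means of macrophage, neutrophil and muscle markers were larger in KHR tumours, and those of the other lists differed less. Of the macrophage, neutrophil and muscle genes 3 passed the test. Among all genes 3.74% passed, and 7.07% of those at or above the median level. At an unadjusted p under 0.05, 15.9% of all genes differed. Defining markers of keratinocytes were bright in every tumour, with list means of 11.98 to 12.23 in KHR tumours and 11.92 to 12.08 in KR tumours (12 markers, of which limma called 0, and 1 at an unadjusted p under 0.05). The mean of 14 macrophage markers was 6.11 ± 0.27 in KHR tumours (5.83 to 6.55) and 5.71 ± 0.25 in KR tumours (5.38 to 6.12). All 14 had a change above 0 and 1, Ms4a7, passed, with 4 higher at an unadjusted p under 0.05. Of these 14 markers, 11 were at or above the median level of all genes. Neutrophil markers averaged 6.63 ± 0.21 in KHR tumours (6.36 to 6.88) and 6.11 ± 0.39 in KR tumours (5.68 to 6.60). Cxcr2 and Mmp9 were higher among 12, and 5 of the 12 were higher at an unadjusted p under 0.05. Skeletal muscle markers averaged 6.72 ± 0.78 in KHR tumours and 6.21 ± 0.46 in KR tumours, with KHR 5 highest at 7.86, and 0 of 20 passed (2 at an unadjusted p under 0.05). Of 10 fibroblast markers 1 passed, Col1a2, a collagen chain, which was lower in KHR tumours (9.39 ± 0.27, against 10.19 ± 0.39 in KR tumours, limma adjusted p = 0.0220), while the list mean differed by 0.03 ± 0.20. At an unadjusted p under 0.05, 2 of the 10 were lower and 0 higher. The list means of endothelium (0.05 ± 0.13, 10 markers) and of all leukocytes (0.13 ± 0.13, 6 markers) differed by no more than about their SE, with 0 of either called by limma, also at an unadjusted p under 0.05. Markers of plasmacytoid dendritic cells (change −0.07), conventional dendritic cells (−0.08), T and NK cells (−0.02) and B cells (0.01) had list means within 0.08 between groups; 0 of their 40 measured genes passed limma's test, and 3 did at an unadjusted p under 0.05. Xist, which marks female tissue, was high (above 11) on 4 of 6 KHR and 2 of 6 KR arrays and below 5 on the others. In bulk tumour RNA, fewer cells of a type and less RNA per cell cannot be told apart.

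The macrophage mean of each tumour, which itself differed between the groups, was set as a covariate in limma. With it, 0 of the 34 genes and 176 of all genes passed, against 3 and 863 without it. The median change of the 34 was then 0.14. Dtx3l differed by 0.79 ± 0.27 (limma adjusted p = 0.246), Ifi27 by 0.59 ± 0.19 (0.210) and Oasl2 by 0.73 ± 0.26 (0.286). Without the covariate these changes were 0.95 ± 0.20, 0.57 ± 0.14 and 0.75 ± 0.19, with smaller SEs. With the covariate the change of Gbp2 was −0.20 ± 0.29 and that of Stat2 was −0.22. With Xist as a covariate 1 gene, Dtx3l, passed, and with the muscle mean 2 did, Dtx3l and Ifi27. The part of other cells in these differences was not tested further.

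**Figure D4:**
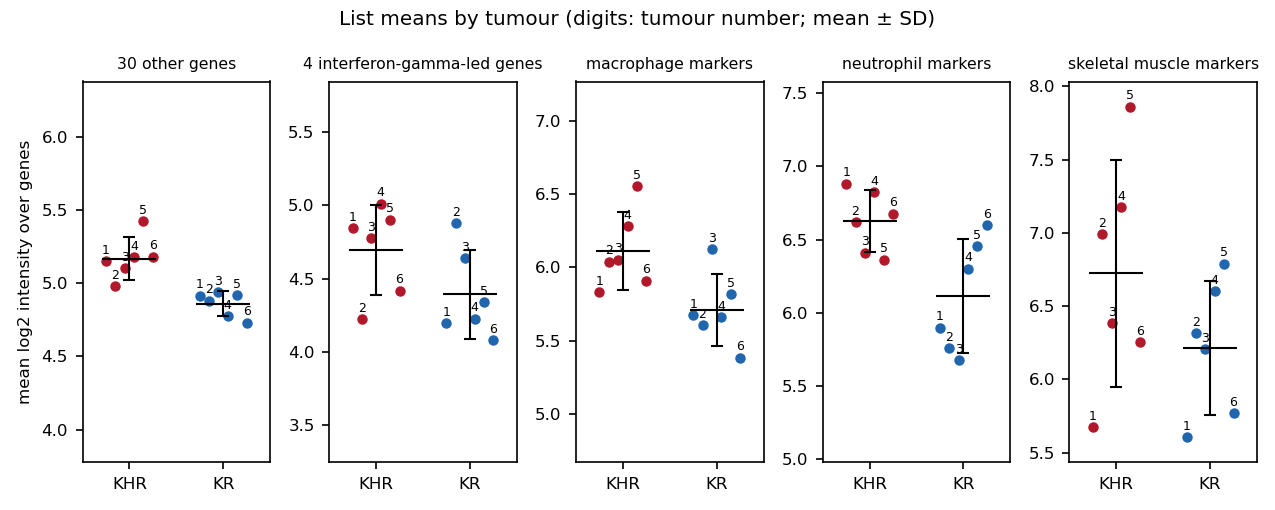
Mean log2 intensity over the genes of a list in each tumour (points, with the tumour number beside each; KHR left and KR right; mean and SD, 6 arrays each). From left to right are the 30 other genes, the 4 interferon-gamma-led genes, and the markers of macrophages, neutrophils and skeletal muscle. The 30 genes separate the groups narrowly (lowest KHR 4.98, highest KR 4.94) while the other panels overlap. The means of all 34 genes, not drawn here, overlap as well (lowest KHR 4.89, highest KR 4.90).

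No single tumour carried the whole set. For 28 of the 34 genes (82.4%, against 52.3% of all genes) the highest array was a KHR tumour, and for 26 (76.5%, against 50.1%) the lowest was a KR tumour. KHR 5 was the highest of 12 for 12 genes (35.3%, against 12.3% of all genes) and had the highest mean of the 34, 5.36, along with the highest macrophage mean (6.55) and muscle mean (7.86). KHR 2 was the lowest KHR tumour for 13 genes, with a mean of 4.89, and KR 6 was the lowest of all for 10 genes (29.4%, against 7.87% of all genes), with a mean of 4.65. The mean of all 34 was 5.11 ± 0.15 in KHR tumours and 4.80 ± 0.10 in KR tumours (SD, n = 6 each), a change of 0.31 ± 0.07 (SE, from unrounded means). One KR tumour, KR 3 at 4.90, lay above KHR 2. Leaving out 1 array at a time gave a median change of the 34 genes between 0.25 and 0.36.

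Beyond the difference between groups, the 34 genes varied together only weakly from tumour to tumour. After the group means were removed, the median Pearson correlation over their 561 pairs was 0.09 across 12 tumours, with 62.4% of pairs above 0. A member with any gene outside the set gave a median of −0.003. The median was 0.13 within KHR tumours and 0.08 within KR tumours, 0.08 among the 12 bright and 0.11 among the 22 dim genes, and 0.06 without KHR 5. It was 0.23 over the 6 pairs of interferon-gamma-led genes, and 0.11 between those 4 and the other 30. Genes of 1 tumour share its array, its RNA and its makeup of cells, so these correlations are descriptions. Taking the mean of probesets as a gene's value gave a median of 0.19.

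**Figure D5:**
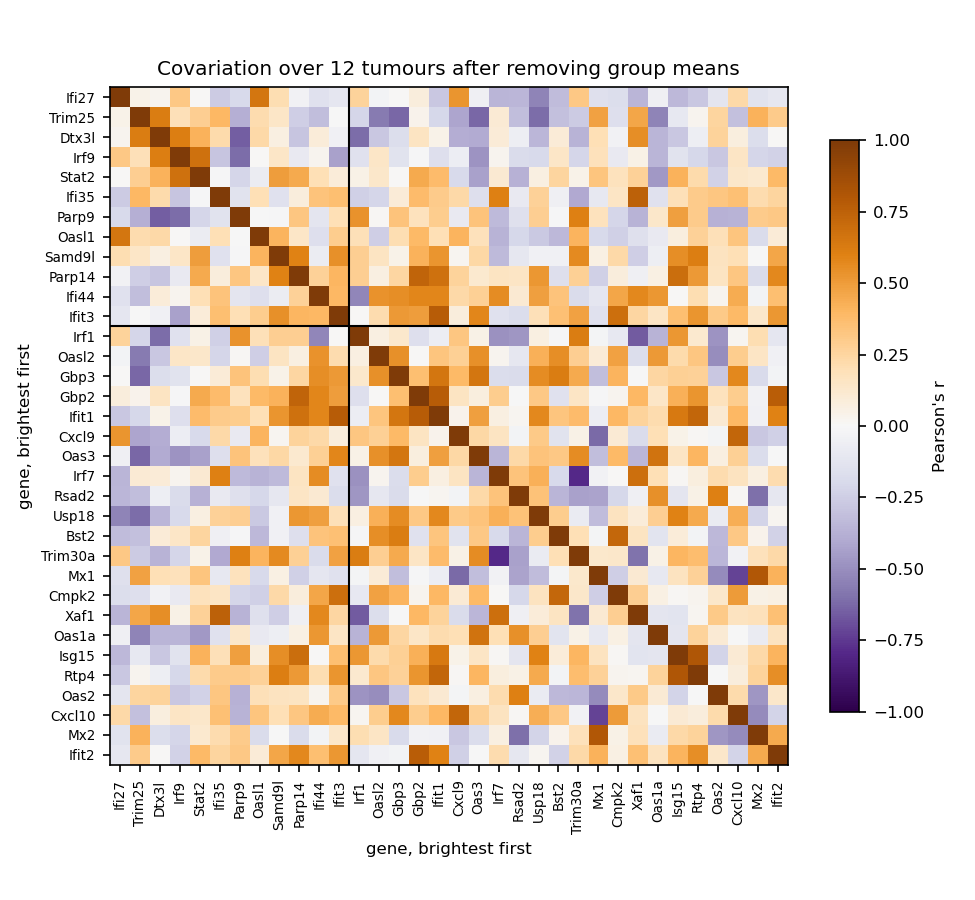
Pearson correlation of each pair of the 34 genes over 12 tumours after removal of group means, from violet at −1 through white at 0 to orange at 1. Genes run from the highest to the lowest mean level and black lines part the 12 bright from the 22 dim genes. There is no block of uniformly high correlation, and the median over pairs is 0.09.

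For 6 pairs of related genes the correlation was tested by 100000 permutations of tumours within groups, with Benjamini-Hochberg adjustment over the 6. Mx1 and Mx2 gave r = 0.80 (permutation p = 0.00721, adjusted 0.0214) and rho = 0.55 (permutation p = 0.0786, adjusted 0.118), with r = 0.49 without the 2 farthest tumours, 0.95 within KHR and 0.41 within KR. Ifit1 and Ifit3 gave r = 0.78 (permutation p = 0.0107, adjusted 0.0214) and rho = 0.50 (permutation p = 0.107, adjusted 0.128), with 0.37 without the 2 farthest, 0.82 within KHR and 0.59 within KR. For both pairs r passed after adjustment and rho did not. Cxcl9 and Cxcl10 gave r = 0.73 (permutation p = 0.00677, adjusted 0.0214) and rho = 0.74 (permutation p = 0.0136, adjusted 0.0561), and r = 0.68 without the 2 farthest. It was 0.87 within KHR tumours and 0.60 within KR tumours.

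Stat2 and Irf9 gave r = 0.68 (permutation p = 0.0321, adjusted 0.0481) and rho = 0.69 (permutation p = 0.0328, adjusted 0.0656), with 0.48 without the 2 farthest tumours, 0.29 within KHR and 0.89 within KR. Here, as for Cxcl9 and Cxcl10, r passed after adjustment and rho did not. Oasl1 and Oasl2 did not vary together (r = −0.24, permutation p = 0.633; rho = −0.27, permutation p = 0.452). Dtx3l and Parp9 encode proteins that form a complex, and their RefSeq spans overlap on chromosome 16 (Dtx3l from 35926515 to 35939027, Parp9 from 35938470 to 35972621, GRCm38.p6). Both genes had a change above 0, while their deviations from the group means correlated negatively. They gave r = −0.65 (permutation p = 0.0427, adjusted 0.0512) and rho = −0.71 (permutation p = 0.0187, adjusted 0.0561). The value of r was −0.67 without the 2 farthest tumours, −0.48 within KHR and −0.73 within KR. Neither r nor rho passed after adjustment.

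The genes most like the mean of the set, with each member scaled to its own spread, were sought among bright genes outside it, over 12 tumours after removal of group means. They were Apoo (r = 0.94), Oga (0.88), Lypla1 (0.88), Eif5a2 (0.87), Cab39 (0.86), Jtb (0.85), Prdm9 (0.84), Prickle1 (0.84), Ndufv2 (0.84) and Mex3c (0.83). Of these 10 genes, 0 are in the lists of other interferon genes used here. Nmi, the partner of Ifi35, came at rank 15 with r = 0.83, Tap2 at rank 81 with 0.74 and Ifih1 at rank 197 with 0.66. The search covered 11539 genes. By rank, rho was 0.79 for Nmi, 0.35 for Tap2 and 0.41 for Ifih1, and from 0.62 (Ndufv2) to 0.87 (Prdm9) for the 10 genes.

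The wider pathway around the 34 genes is given by 4 further lists, read against the 3.74% of all genes that passed in either direction. Of 18 measured interferon ligands, 0 passed, with a list mean of 4.53 ± 0.09 in KHR tumours and 4.61 ± 0.10 in KR tumours. The smallest p values were those of Ifna4 (change −0.39 ± 0.11, limma adjusted p = 0.0771) and Ifnz (−0.35 ± 0.14, 0.217). Of 18 receptors and signalling genes 0 passed. The smallest p values were those of Ptpn2, a phosphatase that damps JAK and STAT signals (0.52 ± 0.15, limma adjusted p = 0.0696), and Ifnar1, a chain of the type I receptor (0.31 ± 0.09, 0.0805). At an unadjusted p under 0.05, 2 ligands were lower and 3 receptors and signalling genes differed (2 higher, 1 lower).

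Of 60 other genes induced by type I interferon, 2 were higher and 1 lower (5.0%, near the share of all genes), and the median change was 0.04. At an unadjusted p under 0.05, 8 were higher and 2 lower (16.7%, where 15.9% of all genes passed). Ifih1, the sensor of long double-stranded RNA, read 5.61, 6.20 and 6.95 in KHR tumours, against 5.07, 5.38 and 5.77 in KR tumours, with a change of 0.80 ± 0.20 (limma adjusted p = 0.0433). Eif2ak2, the kinase that stops translation on double-stranded RNA, read 6.14, 6.68 and 7.22 in KHR tumours, against 5.62, 5.84 and 6.51 in KR tumours, with a change of 0.71 ± 0.19 (limma adjusted p = 0.0489). Both groups overlapped at their ends in these genes. Ifi209, of the PYHIN family of nucleic acid sensors, went the other way, with 4.06, 4.46 and 4.91 in KHR tumours, against 5.10, 5.71 and 6.04 in KR tumours. The groups did not overlap, and the change was −1.21 ± 0.16 (limma adjusted p = 0.00125), although this family holds near-identical copies that its 4 probesets may share. Of 34 other genes led by interferon-gamma, 0 passed (5 at an unadjusted p under 0.05, 4 of them higher) and the median change was 0.03, with the smallest p values for the peptidase Lap3 (0.43 ± 0.12, limma adjusted p = 0.0776) and the immunoproteasome subunit Psmb9 (0.30 ± 0.12, 0.223).

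The changes can be read against the promoter letters. The 12 genes with ISRE letters had a median change of 0.20, from −0.11 to 0.57, and 0 of them passed. The 14 genes with a window and no ISRE letters had a median change of 0.33, from −0.21 to 0.95, and 2 of them, Dtx3l and Oasl2, passed. The classes differed in signal, with 2 of the 12 and 7 of the 14 at or above the median level of all genes. Among all genes 7.07% of those so bright passed, against 0.398% of dim ones. A difference between the classes was not tested. The 8 genes without a window had a median change of 0.37, and 1 of them, Ifi27, passed. Of the 4 genes with GAS letters (Ifit2, Oas1a, Irf1 and Bst2), all had a change above 0, at a median of 0.25, and 0 passed.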

How the data were processed

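The deposited values were log2 intensities per probeset and array for 12 arrays and 269751 probesets, made by the authors with Partek, per the submitters' processing notes. Background correction, normalization, software version and genome build were not given in the sources used here. Log base 2 was inferred from the span of values. Array medians lay between 5.62 and 5.75, and no 2 arrays correlated above 0.97. The number of arrays limits the precision.

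Genes were assigned from the GEO platform annotation. Of the probesets 233753 had 1 symbol and were used, 5106 had several and 30892 had none. Of 23152 symbols 20875 were current, 2247 were updated through RefSeq synonyms (GRCm38.p6) and 30 were kept as given. A gene's value was the median over its probesets, for 23102 genes, with no filter on dim genes.

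The main test was limma's (version 3.58.1 in R 4.3.3, with lmFit and eBayes), two-sided, 6 KHR against 6 KR arrays without covariates, and adjusted by Benjamini-Hochberg. Simulated data with known changes were used to test the code. Correlations used Python 3.11.15 with numpy 2.4.6 and pandas 2.3.3, and figures matplotlib 3.10.9. Bright genes are those at or above the median level of all genes over 12 arrays.

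Given in full were genes past the threshold, the 10 with the smallest p, the 4 interferon-gamma-led genes and the 5 with the highest mean level. Of each other list, genes past the threshold and the 2 with the smallest p were named. Of marker lists only genes past the threshold are printed. Listed symbols of the same gene were counted once. The most alike genes were the 10 with the highest r. Probesets, and genes that lose or gain a call when 1 array is left out, were singled out after their values were seen, as was Isg15. The 34 genes and the other lists were chosen with earlier results of these data known.

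Replicate numbers were checked for pairing, and the correlations of same-numbered arrays ranged from −0.003 to 0.23. Correlations this low cannot show whether the numbers pair the tumours, and the main test did not use the numbers. Alternatives covered other summaries of probesets, scalings, filters, eBayes settings, covariates, an exact rank test, a replicate block and leaving out each array.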

Additional observations from a re-analysis of the deposited data

How the results depend on the processing

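The calls rest on 6 arrays per group, on signals that for 22 of the 34 genes lie below the median of all genes, and on a normalization that is not known. The median change of the 34 genes stayed above 0 under every setting that gave one. Without 1 array at a time, 523 to 1085 of all genes and 1 to 3 of the 34 passed. The single gene that passed without KHR 4, KR 2, KR 5 or KR 6 was Dtx3l. The median change then ran from 0.249 to 0.357, the mean change from 0.239 to 0.400 for the interferon-gamma-led genes, 0.258 to 0.347 for the other 30, 0.404 to 0.503 for bright and 0.179 to 0.271 for dim genes, and the median correlation from 0.0599 to 0.129.

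Means over probesets gave 1445 genes, 5 of the 34 and a median correlation of 0.193. Median polish gave a median change of 0.167, a mean change of 0.283 for bright genes and a median correlation of 0.167, and lost Ifi27 (adjusted p = 0.0661). Bright probesets only, a setting chosen after seeing the data, gave 6 of 26 measured genes. Genes at or above the median level only gave a median change of 0.479 and a mean change of 0.454 for those outside the interferon-gamma-led set, and no value for dim genes. The Xist covariate gave 555 genes and 1 of the 34, the muscle covariate 565 genes. The macrophage covariate gave 176 genes and 0 of the 34, a median change of 0.144 and mean changes of 0.176 for the other 30 and 0.254 for bright genes. Tested per probeset, 6 of the 34 had a probeset that passed. The exact rank permutation test called 0 of all genes after adjustment, 3051 at an unadjusted p under 0.05 (8 of the 34), and its smallest possible p is 0.0022. The replicate block gave 925 genes and 2 of the 34, losing Oasl2 (adjusted p = 0.0727); 1 of 6 arrays correlated best with its own number. After quantile normalization 845 genes passed, 56.8% of them higher against 72.4% without it, and the same 3 of the 34 passed. Array weights added Mx1 (adjusted p = 0.0290). The causes of these shifts were not tested.

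Signs turned in genes that had not passed. Means over probesets gave −0.0261 for Isg15, 0.14 for Usp18 and 0.10 for Gbp3, and median polish −0.0109 for Isg15 and 0.20 for Usp18. Bright probesets only gave −0.27 for Oas2, −0.54 for Irf7, 0.0851 for Usp18, −0.20 for Cxcl9 and 0.23 for Gbp3. Array medians gave −0.0129 for Oas1a, and the Xist covariate −0.0605 for Oas1a and 0.00209 for Usp18. The macrophage covariate gave −0.0243 for Isg15, −0.0482 for Ifit2, −0.22 for Stat2, 0.0122 for Rsad2, −0.20 for Gbp2 and −0.0806 for Samd9l. The probeset with the smallest p gave −0.31 for Isg15, −0.44 for Mx1, 0.41 for Rsad2, 0.66 for Usp18, 0.80 for Gbp3 and −0.72 for Trim30a. Without 1 array, Cxcl9 ran from −0.0895 to 0.28, Oas1a from −0.0328 to 0.0878, Oas3 from −0.20 to 0.0011 and Usp18 from −0.10 to 0.0754.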
